A study of Mus musculus with 6 samples.

Results

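The fibroblast growth factor (FGF) ligand genes Fgf1, Fgf2, Fgf7 and Fgf10 and the receptor genes Fgfr1, Fgfr2, Fgfr3 and Fgfr4 were followed in mouse mammary gland. Their probe sets were chosen by symbol: a probe set was taken where its only gene symbol in the platform annotation was one of these 8. This gave 20 probe sets, 7 of ligands and 13 of receptors, out of 45037 on the array without controls, or 8 genes out of 18193 with a probe set of their own. RNA came from glands of female bitransgenic mice at 10 weeks and at 5 weeks of age. All mice of both ages carried the same pair of transgenes. One came from the mouse that the labels call LH, about which they say no more, and the other from the MMTV-neu mouse. In the MMTV-neu mouse the promoter of mouse mammary tumour virus, active mainly in mammary epithelium, drives the neu (Erbb2) oncogene. Each age was represented by 3 arrays, each of which held pooled RNA from 3 animals, so single animals could not be told apart, and mice without the transgenes were not part of the comparison.

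FGFs are secreted proteins that bind receptor tyrosine kinases at the cell surface together with heparan sulfate chains. A bound receptor docks adaptor proteins, activates the RAS-ERK cascade, and induces its own inhibitors, such as Sprouty proteins and the phosphatase DUSP6. In the mammary gland FGF7 and FGF10 are known as stromal ligands of the epithelial splice form of FGFR2. FGF10 and this receptor take part in forming the gland in the embryo, and the receptor in extending the ducts at puberty.

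At 10 weeks Fgf10, Fgf7, Fgfr1 and Fgfr3 were lower and Fgf1 was higher than at 5 weeks, and of the 2 tested probe sets of Fgfr2 1 was lower and the other was not called. The measurement was a linear signal intensity for each probe set. Probe sets were tested when they were among the brighter 60% by mean over all pools, which corresponds to a signal of about 102.5, and 12 of the 20 passed, covering 7 of the 8 genes (all but Fgf2). Differences were taken on the log2(signal + 32) scale, 10 weeks minus 5 weeks, with standard errors (SE) and Benjamini-Hochberg adjusted p-values from limma over all 27022 probe sets tested. A probe set was called at an adjusted p under 0.05. Of the 12 tested, 8 were called lower and 1 higher, where 15.3% of all tested probe sets were called lower and 13.4% higher. The 8 were not separate genes, since 3 were of Fgfr1 and 2 of Fgf7. By brightest probe set, Fgf7, Fgf10, Fgfr1 and Fgfr3 were lower, Fgf1 was higher, and Fgfr2 and Fgfr4 were not called. Of all 13002 genes taken this way, 18.7% were lower and 15.3% higher. The median log2 difference of the 12 probe sets was -0.75, and that of all tested probe sets was 0.01. In 8 of the 12 every 10-week pool lay below every 5-week pool and in 1 every 10-week pool lay above, against 22.6% and 22.4% of all tested probe sets.

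The arrays had median signals of 156.4 to 172.5, and log2 signals correlated at 0.973 to 0.978 within an age and at 0.932 to 0.955 between ages. The tissue label was checked on markers of luminal epithelium, which were bright in every pool (lowest single signal 1600). Their summed signal was 48322 to 55855 at 10 weeks and 27557 to 34610 at 5 weeks, and 5 of 7 rose. Fibroblast markers fell in 6 of 7 cases, with summed signals of 51998 to 56784 at 10 weeks and 75589 to 89300 at 5 weeks. Endothelial markers fell in 5 of 6 cases (3824 to 4586 against 6688 to 7764) and adipocyte markers in 3 of 7 (46666 to 54983 against 54483 to 65616). Of 6 basal markers, 2 rose and 2 fell (18698 to 20218 against 16573 to 17503). Of 4 macrophage markers, 1 rose and 2 fell (9749 to 10368 against 12520 to 13125). Skeletal muscle markers fell in 6 of 10 cases (5077 to 38872 against 49142 to 97734) and were lowest in 10-week pool 1. None of the 4 B cell markers tested was called by limma (256 to 806 against 309 to 2490), with 2490 in 5-week pool 2, nor were the 4 T cell markers (1007 to 1334 against 513 to 1853). At an unadjusted p under 0.05 these lists held 1 gene each. No tested marker was at 0. The part of these shifts in the FGF differences was not tested, and in RNA of whole glands fewer cells of a type and less RNA per cell cannot be told apart.

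Fgf10 showed the largest fall of the family. FGF10 is the stromal ligand known for driving budding and branching of epithelia. Its single probe set, 1420690_at, had signals of 183.0, 205.5 and 171.0 at 10 weeks, while the 5-week pools read 464.0, 604.1 and 495.4. The ages did not overlap. The lowest 5-week pool was well above the highest 10-week pool. The means were 186.5 ± 17.5 (SD, n = 3 pools) and 521 ± 73.5 (SD, n = 3 pools), a ratio of 2.79 in favour of 5 weeks. The log2 difference was -1.33 ± 0.15 (SE) and passed the limma test (adjusted p = 0.000419). It lay between -1.41 and -1.23 when any 1 pool was left out, with an adjusted p of at most 0.00236.

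Fgf7 fell as well, on both of its probe sets. FGF7, or keratinocyte growth factor, is the other stromal ligand of the epithelial FGFR2 form. Probe set 1438405_at had signals of 164.0, 135.1 and 118.1 at 10 weeks and 436.0, 329.5 and 253.6 at 5 weeks. All 10-week pools were lower, and the 5-week pools were spread, with pool 3 the lowest of them. The means of 139.1 ± 23.2 (SD, n = 3 pools) and 340 ± 91.6 (SD, n = 3 pools) gave a log2 difference of -1.10 ± 0.21 (SE) and passed the limma test (adjusted p = 0.00503). Probe set 1422243_at read 231.4, 201.7 and 239.9 at 10 weeks and 450.0, 416.1 and 291.1 at 5 weeks. Here too 5-week pool 3 stood closest to the 10-week pools, which it exceeded by little. The log2 difference of -0.69 ± 0.18 (SE) was smaller (limma adjusted p = 0.0217), and the call depended on single pools. It ended without 10-week pool 1 (-0.71, limma adjusted p = 0.0523), 10-week pool 2 (-0.62, 0.0691), 5-week pool 1 (-0.57, 0.0769) or 5-week pool 2 (-0.63, 0.0640). The gap between the probe sets, on the log2 scale, was 0.59 ± 0.23 (SD, n = 3 pools) at 10 weeks and 0.18 ± 0.13 (SD, n = 3 pools) at 5 weeks. That change of 0.41 had an exact two-sided permutation p of 0.1 over 6 pools, the smallest this design allows (0.25 after adjustment over the 5 probe set pairs compared).

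The stretches just before the annotated starts of Fgf7 and Fgf10 are shown because these ligands of one receptor form fell together. Both come from RefSeq (GRCm38.p6), cover the 250 bases before the start and run 5′ to 3′ on the plus strand, Fgf7 at chr2:126034408-126034657 and Fgf10 at chr13:118714449-118714698. Capitals mark matches, on either strand, to the letters TATAAA (the core of a TATA box), GGGCGG (a GC box) or CCGGAAG (a core bound by ETS factors).
Fgf7: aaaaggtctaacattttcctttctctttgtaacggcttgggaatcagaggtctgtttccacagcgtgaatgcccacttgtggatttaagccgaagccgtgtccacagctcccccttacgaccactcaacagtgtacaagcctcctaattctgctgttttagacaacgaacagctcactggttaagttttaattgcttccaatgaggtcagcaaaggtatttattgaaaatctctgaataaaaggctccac
Fgf10: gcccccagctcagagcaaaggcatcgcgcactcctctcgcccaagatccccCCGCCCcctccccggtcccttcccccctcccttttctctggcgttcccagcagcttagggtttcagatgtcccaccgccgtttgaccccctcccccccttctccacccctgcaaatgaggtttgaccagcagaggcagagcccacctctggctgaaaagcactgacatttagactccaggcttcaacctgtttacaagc
The stretches differ in base composition. G and C made up 43.6% of the Fgf7 stretch and 61.2% of that of Fgf10, where the median over 32851 promoters was 52.4%. The stretch before Fgf10 held 1 GC box match, 199 bases before the start, and that of Fgf7 held no match to any of the 3 motifs. Among all promoters of this length, 32.7% held GGGCGG, 12.4% TATAAA and 6.91% CCGGAAG. The motifs share no bases here.

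Fgf1 was the called ligand that went the other way. FGF1, or acidic FGF, binds every FGF receptor and lacks a classical secretion signal. Its brightest probe set, 1450869_at, read 273.5, 321.2 and 284.6 at 10 weeks and 146.6, 197.8 and 164.3 at 5 weeks. The ages did not overlap. The means were 293 ± 25.0 (SD, n = 3 pools) and 169.6 ± 26.0 (SD, n = 3 pools), a log2 difference of 0.69 ± 0.16 (SE) in the limma test (adjusted p = 0.0125). The call held without any 1 pool, with an adjusted p of at most 0.0463. The other Fgf1 probe sets were dimmer and not tested. Probe set 1423136_at, listed under the same accession as the bright one, read 92.8, 84.8 and 57.5 at 10 weeks and 52.5, 46.2 and 118.4 at 5 weeks, with overlapping ages. The third, 1441042_at, read 12.2 to 31.0 over all pools, also with overlap.

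Fgf2 was below the filter. FGF2, or basic FGF, is bound and stored by the extracellular matrix. Its probe set, 1449826_a_at, read 53.5, 39.3 and 66.1 at 10 weeks and 90.9, 130.9 and 109.7 at 5 weeks. Every 10-week pool was below every 5-week pool, and the means were 53.0 ± 13.4 (SD, n = 3 pools) and 110.5 ± 20.0 (SD, n = 3 pools). When all probe sets were tested without the filter, its log2 difference was -0.75 ± 0.22 (SE) and narrowly missed the threshold (limma adjusted p = 0.0531).

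**Figure D1:**
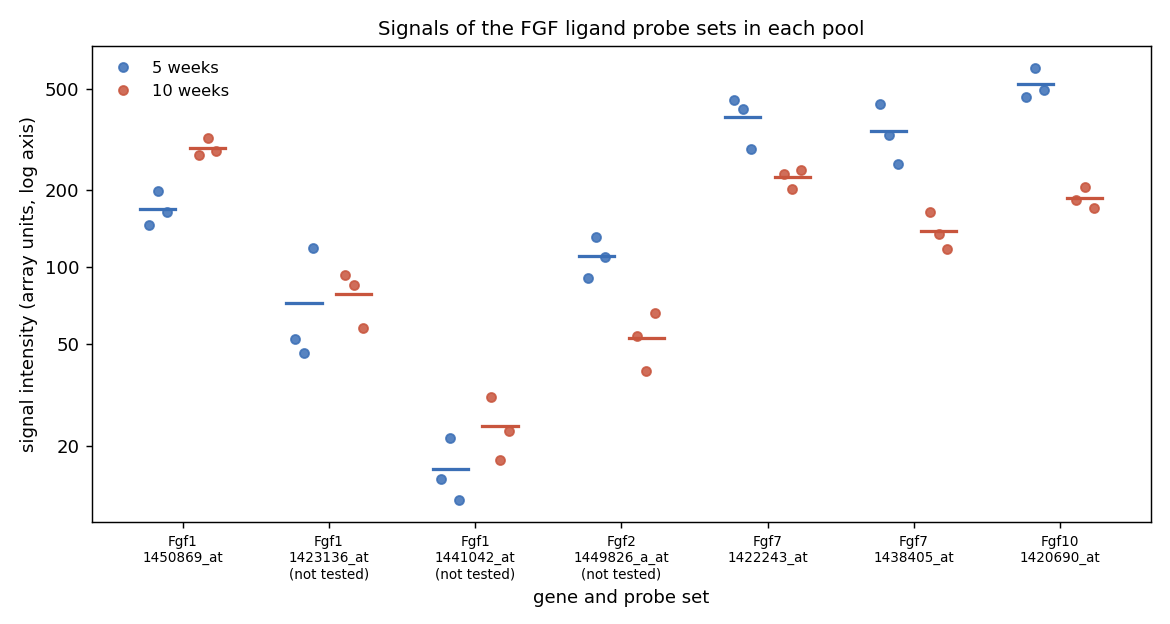
Signal intensity (array units, log axis) of the 7 ligand probe sets in each of the 3 pools at 5 weeks (blue) and 10 weeks (red), with horizontal bars for the means of 3 pools. Fgf10 sits at 171.0 to 205.5 at 10 weeks and 464.0 to 604.1 at 5 weeks, both Fgf7 probe sets are lower at 10 weeks, and the bright Fgf1 probe set is higher.

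Fgfr1 fell on all 3 of its probe sets. FGFR1 is the receptor used widely by mesenchymal cells and also by mammary epithelium. The brightest, 1425911_a_at, read 1697.4, 1736.1 and 1645.3 at 10 weeks and 3299.5, 3313.7 and 3051.2 at 5 weeks. The pools of an age lay close together and the ages far apart. The means were 1693 ± 45.6 (SD, n = 3 pools) and 3222 ± 148 (SD, n = 3 pools), a log2 difference of -0.91 ± 0.09 (SE) that was the most precise of the family (limma adjusted p = 0.000217). Probe set 1424050_s_at, at 1126.9, 1085.0 and 1208.0 against 1796.9, 1782.0 and 2077.8, had a log2 difference of -0.71 ± 0.11 (SE) (limma adjusted p = 0.00160). The third, 1436551_at, at 225.0, 289.4 and 297.6 against 430.2, 490.6 and 541.6, had one of -0.78 ± 0.16 (SE) (limma adjusted p = 0.00647). Against the brightest probe set, the gaps of the other two changed by -0.21 and -0.13 on the log2 scale. Their exact permutation p-values of 0.3 and 0.5 (0.375 and 0.5 after adjustment) do not show that the probe sets changed alike, since 3 pools against 3 cannot give a p under 0.1. All 3 calls held without any 1 pool, with adjusted p-values of at most 0.0240.

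Fgfr3 fell on its brighter probe set. FGFR3 is best known as a brake on growth of cartilage and is also used by epithelia. Probe set 1421841_at read 192.6, 106.9 and 161.7 at 10 weeks and 366.3, 370.1 and 297.7 at 5 weeks. The ages did not overlap, and 10-week pool 2 was the lowest. The means of 153.7 ± 43.4 (SD, n = 3 pools) and 345 ± 40.7 (SD, n = 3 pools) gave a log2 difference of -1.04 ± 0.20 (SE) in the limma test (adjusted p = 0.00571), and the call held without any 1 pool (at most 0.0224). The dimmer probe set, 1425796_a_at, was not tested and overlapped between the ages, at 78.2, 59.0 and 88.5 against 45.4, 85.7 and 35.7.

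Of the 3 probe sets of Fgfr2, 1 fell, 1 was not called and 1 was not tested. The gene makes an epithelial form (IIIb), which binds FGF7 and FGF10, and a mesenchymal form (IIIc), by alternative splicing of an exon of the ligand-binding domain. Probe set 1420847_a_at read 362.4, 373.7 and 360.1 at 10 weeks and 603.1, 749.5 and 837.7 at 5 weeks. All 10-week pools were lower and lay within a narrow span. The means were 365 ± 7.28 (SD, n = 3 pools) and 730.1 ± 118.5 (SD, n = 3 pools), a log2 difference of -0.93 ± 0.15 (SE) that passed the limma test (adjusted p = 0.00186). Probe set 1433489_s_at read 936.9, 1092.9 and 916.9 at 10 weeks and 564.5, 728.7 and 978.1 at 5 weeks. Here the ages overlapped through 5-week pool 3, which was higher than 10-week pools 1 and 3. The log2 difference of 0.39 ± 0.19 (SE), with a 95% interval of -0.03 to 0.81, did not pass the limma test (adjusted p = 0.150), and without 5-week pool 3 it was 0.59 and did (adjusted p = 0.0303). The dim probe set 1443211_at, not tested, read 106.9, 100.4 and 89.9 at 10 weeks and 57.2, 39.3 and 39.0 at 5 weeks. Its ages did not overlap, and without the filter it was called higher, by 0.77 ± 0.20 (SE) on the log2 scale (limma adjusted p = 0.0325).

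The gap between the tested Fgfr2 probe sets was also taken within each pool. The log2 signal of 1433489_s_at minus that of 1420847_a_at was 1.30, 1.47 and 1.28 at 10 weeks and -0.09, -0.04 and 0.22 at 5 weeks. The ages did not overlap in this gap. Its means were 1.35 ± 0.11 (SD, n = 3 pools) and 0.03 ± 0.16 (SD, n = 3 pools), a change of 1.32, the largest among the 5 probe set pairs (exact two-sided permutation p = 0.1, the smallest possible, and 0.25 after adjustment). With the tested probe sets averaged, Fgfr2 had a log2 difference of -0.27 and was not called by limma (adjusted p = 0.213), so the call for the gene depends on the probe set. In the array maker's naming, probe sets ending in _a_at match several transcripts of a gene, and those ending in _s_at or _x_at can match other sequences as well. Which Fgfr2 exons each probe set covers was not settled here.

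The stretches before Fgfr2 and Fgfr3 are shown as those of receptors with a called probe set. They are again the 250 bases before the start in RefSeq (GRCm38.p6), 5′ to 3′, at chr7:130266809-130267058 on the minus strand and chr5:33721474-33721723 on the plus strand, with capitals as above. For Fgfr3 the first of 2 annotated starts was taken.
Fgfr2: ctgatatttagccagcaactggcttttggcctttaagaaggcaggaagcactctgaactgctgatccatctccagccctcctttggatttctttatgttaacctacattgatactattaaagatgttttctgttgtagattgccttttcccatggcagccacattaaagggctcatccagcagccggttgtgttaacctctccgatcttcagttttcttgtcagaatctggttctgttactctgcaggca
Fgfr3: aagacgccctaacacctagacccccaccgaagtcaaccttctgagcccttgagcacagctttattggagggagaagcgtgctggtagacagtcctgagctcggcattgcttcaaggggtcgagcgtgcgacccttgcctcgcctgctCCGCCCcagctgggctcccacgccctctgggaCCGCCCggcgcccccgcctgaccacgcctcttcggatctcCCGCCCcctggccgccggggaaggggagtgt
G and C made up 44.0% of the Fgfr2 stretch and 66.8% of that of Fgfr3, with 2 and 19 CpG dinucleotides where the median promoter had 6. The Fgfr3 stretch held 3 GC box matches, 103, 71 and 31 bases before the start. The Fgfr2 stretch held no match to the motifs. Stretches not shown also held GC box matches: 1 before Fgf2, 2 before Fgfr4 and 2 before the second Fgfr3 start. Of the 8 genes, 6 had an entry in the promoter table, and Fgf1 and Fgfr1 had none.

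Fgfr4 showed no called difference. FGFR4 is known mainly from liver, where it acts with beta-klotho in the control of bile acids. Probe set 1427846_x_at read 133.1, 290.4 and 262.9 at 10 weeks and 191.2, 191.1 and 220.1 at 5 weeks, with 10-week pool 1 the lowest of all and the others the highest. Its log2 difference was 0.11 ± 0.25 (SE), with a 95% interval of -0.46 to 0.68 (limma adjusted p = 0.785), and it was -0.07 to 0.41 when 1 pool was left out. Probe set 1418596_at read 80.6, 119.7 and 107.4 at 10 weeks and 110.2, 104.0 and 176.8 at 5 weeks. Its log2 difference of -0.25 ± 0.23 (SE) had an interval of -0.77 to 0.26 (limma adjusted p = 0.436). The lower bound of -0.77 reaches past the difference of Fgfr1 probe set 1424050_s_at (-0.71), so a fall of that size was not resolved. Of the 3 untested Fgfr4 probe sets, 1427845_at and 1427776_a_at read 5.5 to 22.3 over all pools, and 1427777_x_at ranged from 24.6 to 181.2 within the 10-week pools alone.

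**Figure D2:**
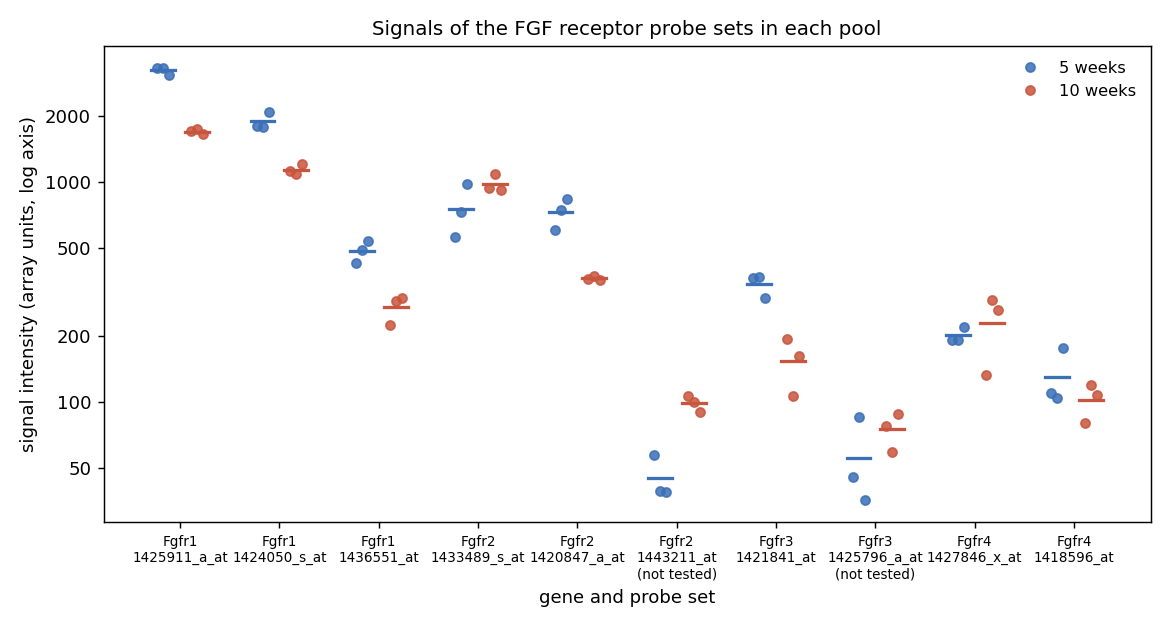
Signal intensity (array units, log axis) of 10 receptor probe sets (the 8 tested and the untested ones of Fgfr2 and Fgfr3) in each of the 3 pools at 5 weeks (blue) and 10 weeks (red), with bars for the means of 3 pools. All Fgfr1 probe sets are lower at 10 weeks, Fgfr2 1420847_a_at is lower, Fgfr2 1433489_s_at overlaps between ages, and the Fgfr4 probe sets overlap.

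**Figure D3:**
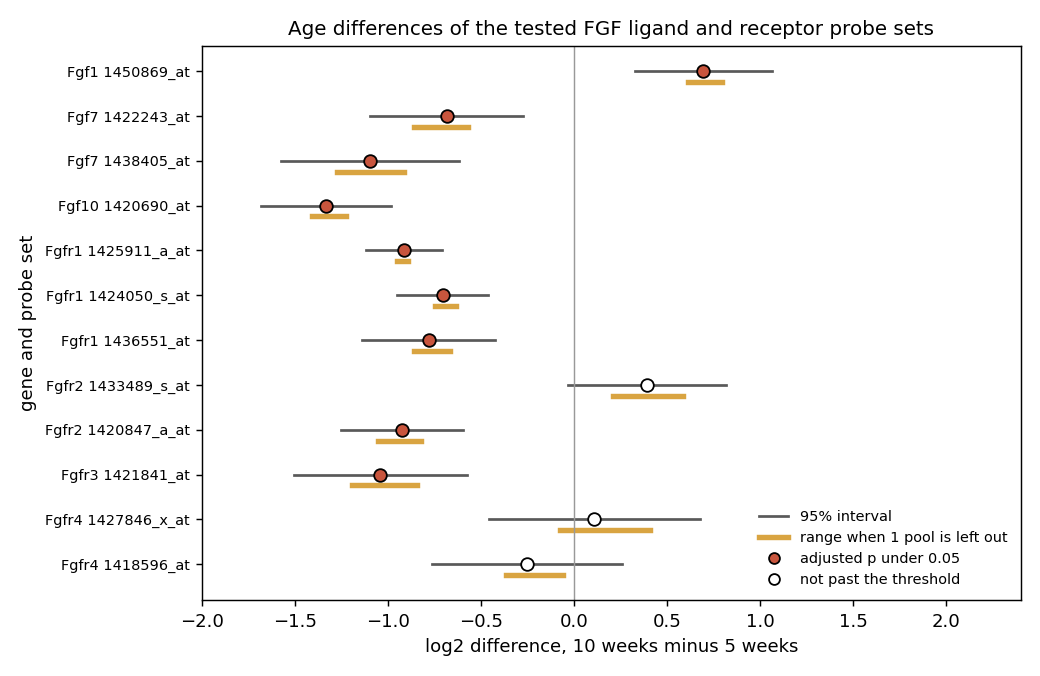
Log2 difference, 10 weeks minus 5 weeks, of the 12 tested probe sets (points, filled where the limma adjusted p was under 0.05), with 95% intervals in grey and, in yellow, the range when any 1 of the 6 pools is left out. The differences run from -1.33 for Fgf10 to 0.69 for Fgf1.

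Genes whose signals followed the brightest ligand and receptor probe sets most closely over the 6 pools were named by the Pearson correlation of log2 signals among 13001 other genes. For Fgf10 these were the semaphorin gene Sema3g (r = 0.997), the outer mitochondrial membrane cytochrome gene Cyb5b (0.997) and Ripor1 (0.997). For Fgfr1 (1425911_a_at) they were the myelin protein gene Pmp22 (0.999), the formin gene Diaph1 (0.999) and the cell cycle inhibitor gene Cdkn1c (0.999). Over so few pools, in which age sets most of the spread, 1629 genes had a correlation of at least 0.9 with Fgf10 and 1647 with Fgfr1, so these names describe a shape that many genes shared.

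Among other genes of the pathway, taken from lists by role, 63 of 95 had a tested probe set, and 10 rose and 17 fell by their brightest probe set, where 15.3% of 13002 genes rose and 18.7% fell. The median log2 difference of the 63 was -0.24, and that of all genes was -0.0037. Of the 18 other ligand genes, 14 had no probe set above the filter. None of the 4 tested was called by limma on its brightest probe set, though 3 had an unadjusted p under 0.05. Fgf13, which encodes an intracellular relative that does not act through FGF receptors, read 1104 ± 158 (SD, n = 3 pools) at 10 weeks and 1391 ± 146 (SD, n = 3 pools) at 5 weeks, a log2 difference of -0.33 (adjusted p = 0.104). The other of the 2 tested Fgf13 probe sets was called lower (-0.78), and the probe sets averaged gave -0.55 (adjusted p = 0.0244). Fgf9, a secreted ligand of stroma and epithelium, had a log2 difference of 0.51 (limma adjusted p = 0.0661). It passed with no variance trend (0.0466). It also passed in the fit on averaged probe sets (0.0481), though Fgf9 had only 1 tested probe set, so nothing was averaged for it.

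Among genes for proteins that present or bind FGFs at the cell surface, 7 of 15 tested fell, 1 rose and 7 were not called, with a median log2 difference of -0.40. Sdc1, a heparan sulfate proteoglycan of epithelia, fell from 3653 ± 349 (SD, n = 3 pools) to 2006 ± 93.3 (SD, n = 3 pools), by 0.85 on the log2 scale (limma adjusted p = 0.000528). The glypican gene Gpc3 fell by 1.40 and Flrt2, which encodes a membrane protein that binds FGF receptors, fell by 1.28. The syndecan gene Sdc4 rose from 596 ± 87.7 (SD, n = 3 pools) to 1360 ± 214 (SD, n = 3 pools), by 1.15 on the log2 scale. Fgfrl1, a receptor relative without the kinase domain, and Klb, the beta-klotho co-receptor gene, were picked for mention after their values were seen. Fgfrl1 fell by 0.83, and Klb fell by 0.82 (adjusted p = 0.0270), a call that ended without 10-week pool 1 (0.0863), 10-week pool 3 (0.0736) or 5-week pool 3 (0.0518). All tested probe sets of Sdc1 (4), Flrt2 (3), Fgfrl1 (2) and Sdc4 (2) were called in 1 direction. Other genes were less uniform. Of the fallen genes, Sdc3 had 1 of 3 and Gpc6 1 of 5 tested probe sets not called. Hspg2, not called on its brightest probe set, had 1 of 2 called lower (-1.03).

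The enzymes that build and trim heparan sulfate split evenly. Of 17 tested, 4 rose and 4 fell, with a median log2 difference of -0.13, and 2 fell without 10-week pool 1, 5-week pool 1 or 5-week pool 3. Hs3st3b1, a 3-O-sulfotransferase gene, rose from 168 ± 28.0 (SD, n = 3 pools) to 631 ± 29.1 (SD, n = 3 pools), a log2 difference of 1.74 ± 0.15 (SE) (limma adjusted p = 0.000126). Of the 3 tested Hs3st3b1 probe sets, 1 was not called, and their lowest log2 difference was 0.56. Hs6st1, a 6-O-sulfotransferase gene, rose by 1.47 and the chain-elongation gene Extl1 by 1.27. Hpse, the heparanase gene, fell by 0.98 and Sulf1, which encodes a sulfatase that removes 6-O-sulfates outside the cell, fell by 0.88. Hs6st2 fell by 0.92 from a low signal (202 ± 49.6 to 90.9 ± 22.3, SD, n = 3). Its mean log2 level at 10 weeks (6.93) was below the filter cut of 7.07, so it was tested only through its 5-week level (7.85). Leaving out 10-week pool 1, 5-week pool 1 or 5-week pool 3 ended the call (limma adjusted p = 0.0518, 0.0540 and 0.0512).

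Inside the cell, genes of the relay from receptor to ERK were taken by their brightest probe set. Of 14 adaptor and RAS-ERK genes tested, 1 rose and 1 fell, with a median log2 difference of 0.0046. Of all genes taken this way, 15.3% rose and 18.7% fell. Nras and Braf, not called on their brightest probe sets, had 1 of 3 and 1 of 7 tested probe sets called higher. Their highest log2 differences were 0.76 and 0.83. Plcg1, the phospholipase that docks on activated FGF receptors, fell by 0.53 (limma adjusted p = 0.00718), a call on 1 of 2 tested probe sets. The docking protein gene Gab1 rose by 0.65 (limma adjusted p = 0.0214), a call on 1 of 3 tested probe sets. This call was lost without 10-week pool 1 (0.0677), 10-week pool 2 (0.0699) or 5-week pool 2 (0.0623), and with averaged probe sets (0.0524).

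Among genes that FGF signalling is known to induce, mostly its own inhibitors, 4 of 10 tested fell and 2 rose, with a median log2 difference of -0.35. Dusp6, the ERK phosphatase gene, read 867.8, 968.9 and 917.0 at 10 weeks and 1468.0, 1468.8 and 1694.7 at 5 weeks, and fell by 0.73 on the log2 scale (limma adjusted p = 0.00154). Il17rd, also called Sef, fell by 0.97 and the Sprouty gene Spry4 by a log2 difference of -1.01. Etv5, an ETS factor induced by FGF10 in branching organs and picked for mention after its values were seen, read 446.6, 593.5 and 710.4 at 10 weeks and 1245.5, 914.3 and 1758.7 at 5 weeks. The ages did not overlap, and its log2 difference was -1.09 ± 0.24 (SE) (limma adjusted p = 0.00944). The phosphatase genes Dusp5 and Dusp4 (the latter also picked after its values were seen) rose by 1.39 and 1.15. Spry1 and Spry2, named outside the rule for named genes, had log2 differences of -0.36 and -0.07 and were not called (limma adjusted p = 0.144 and 0.695). The other of the 2 tested Spry2 probe sets had 0.52 and was not called either. Spred1, not called on its brightest probe set, had 3 of 7 tested probe sets called lower.

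Of the regulators that choose between the receptor forms by splicing, Esrp1 and Esrp2 rose. Both encode epithelial RNA-binding proteins that promote the IIIb exon of Fgfr2. Esrp1 read 3561.0, 3508.6 and 3047.0 at 10 weeks and 1592.9, 1105.8 and 1742.1 at 5 weeks, a log2 difference of 1.19 ± 0.16 (SE) (limma adjusted p = 0.000989). Esrp2 read 2069.4, 1689.3 and 1501.7 against 786.4, 628.0 and 727.9, a log2 difference of 1.25 ± 0.14 (SE) (limma adjusted p = 0.000422), and 1 of its 2 tested probe sets was called. The ages did not overlap for either gene, and the luminal markers given above moved in the same direction. Rbfox2, another splicing factor of this exon, fell by 0.70 (adjusted p = 0.0406), on 1 of 4 tested probe sets, and the call ended without any 1 pool except 10-week pool 2 (adjusted p = 0.0628 to 0.106), with averaged probe sets (0.226), with no filter (0.0712) and with no variance trend (0.0600).

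**Figure D4:**
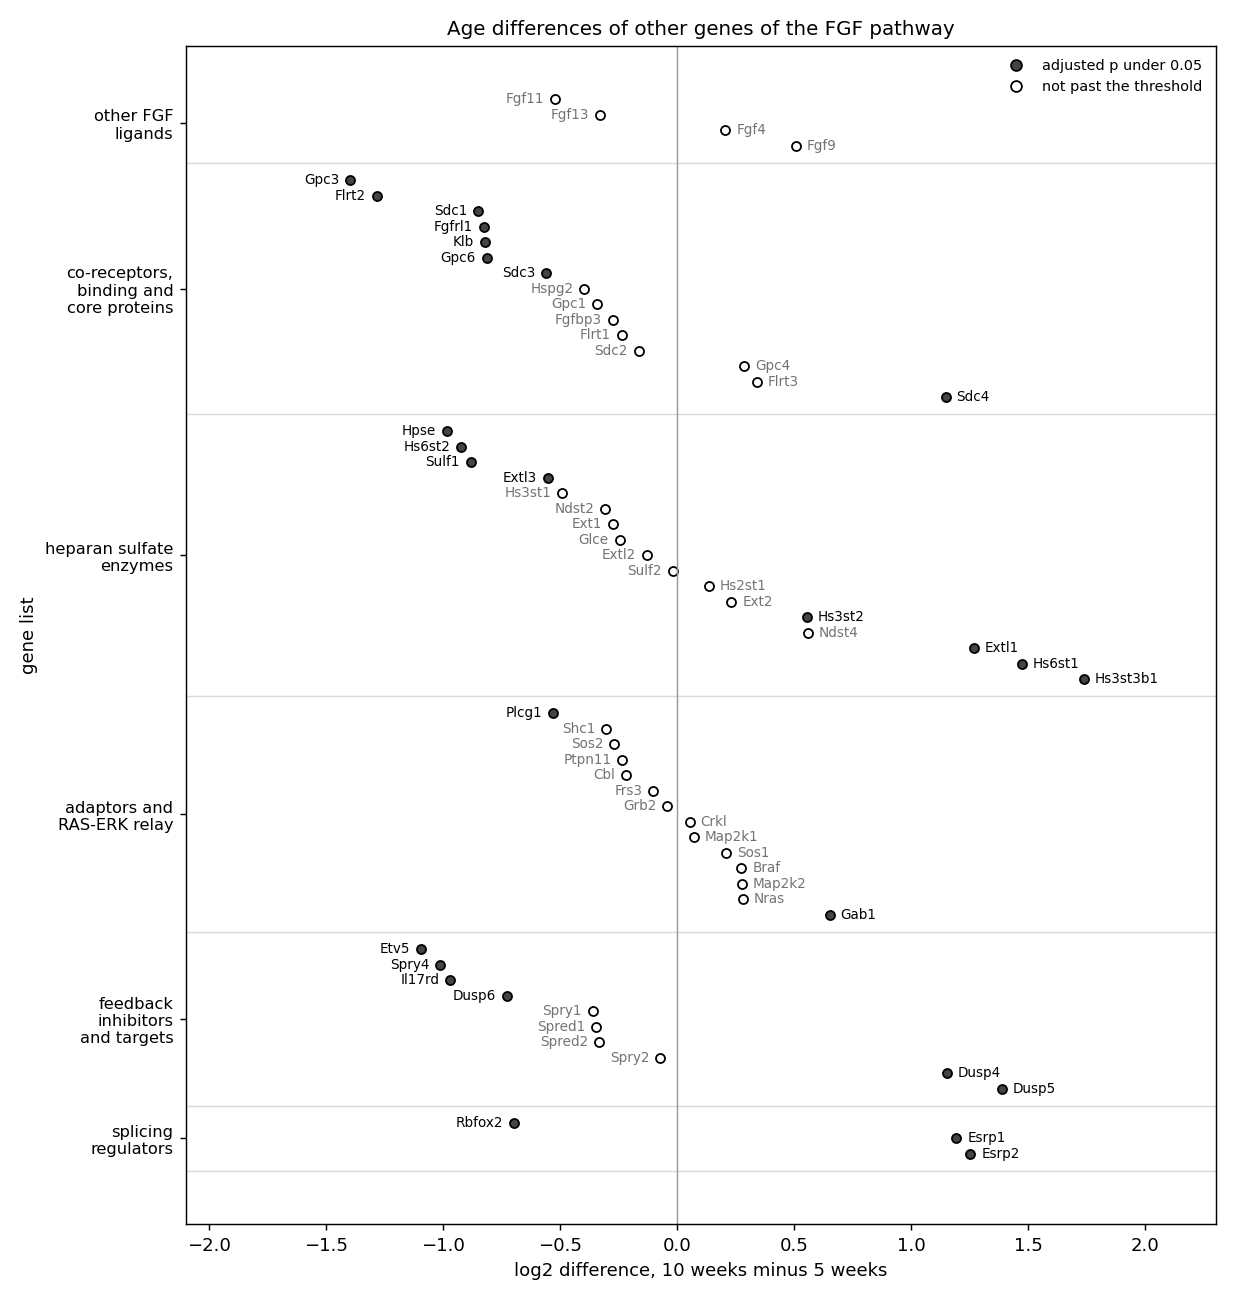
Log2 difference, 10 weeks minus 5 weeks, of 63 other pathway genes by their brightest tested probe set, grouped by role and ordered within each list. Filled points passed a limma adjusted p of 0.05, and they include 7 that fell and 1 that rose among co-receptors, binding and core proteins.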

How the data were processed

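Mammary gland total RNA was labelled with biotin-UTP, per the labels. The deposited values are linear signal intensities for 45101 probe sets, and the mean without the lowest and highest 2% was 500 on every array, tested on the values. The algorithm, detection calls and any batch are not given in the sources used here. Leaving out 64 controls left 45037 probe sets, of which 34945 had a single symbol, and 34741 of these were updated by gene identifier in a RefSeq table (GRCm38.p6).

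Signals under 1 were set to 1 and log2(signal + 32) was taken, which understates differences of dim genes. The 40% with the lowest mean were left out. Array medians lay within 0.118 on the log2 scale, so nothing further was normalized. limma 3.58.1 in R 4.3.3 (lmFit, eBayes with a variance trend) was fitted on age with 4 residual degrees of freedom, two-sided, and tested on simulated data. The brightest tested probe set stood for a pathway gene. The precision rests on 3 pools per age, and nothing but the pooling says how the pools of an age were kept apart. Named pathway genes are the 3 with the smallest adjusted p in a list's main direction and the largest call the other way (both directions in a tie), or the 2 brightest where none was called. Pathway genes outside this rule are marked as such or named only for their further probe sets. Members and lists were chosen with earlier results of these data known. Alternatives changed the offset, filter, normalization, variance model, array weights and probe set choice and left out each pool. Some genes of the lists were not analysed here. Plots used Python 3.11.15 and matplotlib 3.10.9.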

Additional observations from a re-analysis of the deposited data

How the results depend on the processing

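For the 12 tested FGF ligand and receptor probe sets, 15 alternatives gave 175 values, not counting the averaging of probe sets. Of these, 170 kept the side of the threshold, and no called value changed its direction. The sign of the uncalled Fgfr4 1427846_x_at changed when some pools were left out (-0.07 to 0.41). The exceptions were all from leaving out 1 pool: Fgf7 1422243_at (-0.86 to -0.57) lost its call in 4 cases, and Fgfr2 1433489_s_at (0.21 to 0.59) gained one. With the tested probe sets of a gene averaged, Fgfr2 was not called (-0.27, limma adjusted p = 0.213). Fgf7 and Fgfr1 were called as before, and Fgfr4 was not. Fgf1, Fgf10 and Fgfr3 kept their differences and calls, but each had only 1 tested probe set, so averaging was no check for them. The offset set part of the sizes, so that Fgf10 had -1.47 with an offset of 1 and -1.11 with 100. The number of these probe sets called higher was 2 with no filter, 0 when the 60% with the lowest mean were left out (Fgf1 was then not tested, and 7 probe sets remained) and 1 to 2 without 1 pool. Other FGF ligands gave 1 call lower with quantile normalization, 1 higher and 1 lower with no variance trend, and 1 higher and 2 lower with averaged probe sets. With the 60% filter the relay list had 2 genes lower and the target list 1 higher. The splicing list had 0 lower with no filter, no variance trend or averaged probe sets, and 0 to 1 without 1 pool. Without 1 pool, 2 to 4 heparan sulfate enzymes were lower and 0 to 2 relay genes higher. Quantile normalization made 50.3% of all calls upward, against 46.7% here. No paired analysis was possible because the labels give the pools of the ages no shared numbers. No detection call was used, so dim probe sets have no stated limit of detection.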
